A study of Danio rerio with 2 samples.

Results

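The genes described here are 38 genes of mitosis and cytokinesis, followed over the cell classes and ages of a single-cell RNA sequencing series from zebrafish hearts. They were taken by symbol from a list based on their roles, drawn up with earlier results of these data known, and they stand among 31323 gene symbols in the deposited matrices. All 38 were found, under 39 gene identifiers, because *ube2c* is listed under a pair of identifiers whose UMIs were summed. Most sit at the core of every vertebrate division: *cdk1*, *ccnb1* and *ccna2* drive entry into mitosis, *mki67* coats the chromosomes, *kif11* and *tpx2* build the spindle, and *prc1a*, *kif23* and *anln* belong to the machinery that separates the daughters.

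Hearts came from Tg(kdrl:nls-mCherry); Tg(cd41:GFP) zebrafish, sequenced as 1 library per age, of 4125 cells at 72 hpf and 2665 cells at 48 hpf, with no treatment or mutation. The *kdrl* promoter places mCherry in endothelial and endocardial nuclei, and the *cd41* promoter places GFP in thrombocytes and early blood progenitors. Cells with mCherry, with or without GFP, were sorted and then mixed for each library, so the share of blood in a library depends on the sort. The number of hearts behind each library is not given in the sources used here. Library and age coincide, so neither can be told apart from the other in any difference between 72 and 48 hpf, and no comparison below carries a test. Intervals are 95% and cover counting error alone.

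A dividing cell condenses its chromosomes with condensin and topoisomerase II, attaches them through kinetochores to a microtubule spindle, and holds in metaphase until the spindle checkpoint releases the anaphase-promoting complex (APC/C). Cyclin B is then destroyed, the chromatids part, and a central spindle bundled by PRC1 recruits the centralspindlin complex, which positions the contractile ring. Transcripts of most of these genes accumulate in G2 and mitosis and are scarce in cells at rest, which is why they are read as marks of cycling cells. The embryonic endocardium is a single endothelial layer that grows while the chambers balloon and the valves form, and primitive red cells and early blood progenitors also divide in the circulation. The roles given below are those of the vertebrate counterparts, known mostly from human cells.

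The 72 hpf library held 33721297 UMIs, with a median of 6316 per cell, and the 48 hpf library held 30735426, with a median of 10411. The members made up 0.495% of all UMIs at 72 hpf and 0.756% at 48 hpf. Only 4 cell barcodes occurred in both libraries. Because depth differed, shares of cells were read after each cell had been thinned to 2500 UMIs, which left no cell out. A level is a pooled CPM, that is, a gene's UMIs in all cells of a group per 1000000 UMIs of that group. A 3′ library counts each molecule once at its end, so levels were set against each other between genes without a length correction. Whether the 3′ ends of all genes are captured and annotated equally well was not examined.

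Cells were clustered again without 200 listed cell cycle genes and 272 further genes correlated with the number of members detected. That correlation was read in cells with few blood markers, so other cycle genes may remain, above all those of blood cells. Classes were named from marker genes with the suffix "-like". The study's own cluster names were not used here, and its borders may lie elsewhere. There were 1377 chamber endocardial-like cells at 72 hpf and 813 at 48 hpf, 436 and 491 valve endocardial-like cells, and 118 and 216 lymphatic-like cells. Valve interstitial-like cells (VIC-like, 343), erythroid-like cells (130), thrombocyte-like cells (71) and other blood cells (162) were described at 72 hpf only, since the 48 hpf library held 2 VIC-like cells and 15 blood cells in all. Clusters without a name took up 35.4% of the 72 hpf library and 42.3% of the 48 hpf library. Marker sums were not all highest for the list that named the class. Valve markers summed to 29770 CPM in valve endocardial-like cells and 1810 CPM in chamber endocardial-like cells at 72 hpf, and erythroid markers to 25805 CPM in erythroid-like cells and 45.5 CPM in chamber endocardial-like cells. Lymphatic-like cells had more CPM of the 24 chamber markers than of the 18 lymphatic ones, 15966 against 12551 CPM at 72 hpf and 12344 against 5289 CPM at 48 hpf, and thrombocyte-like cells had 4569 CPM of the thrombocyte markers and the same sum of erythroid ones. Different clusters filled the chamber endocardial-like class at each age, a cluster led by *sat1a.1*, *basp1*, *nrg2a* and *vcam1b* at 72 hpf and another led by *dcn* and *tmem88b* at 48 hpf. The valve endocardial-like class likewise rested on a cluster led by *rspo2* at 72 hpf and one led by *nrg1* at 48 hpf, and the lymphatic-like class on one led by *lyve1a* and *lyve1b* at 72 hpf and, for 188 of its 216 cells at 48 hpf, one led by *lyve1b* and *gpm6ab*. For that reason, all non-blood cells together (3735 cells at 72 hpf and 2650 at 48 hpf) carry the comparison of ages, and the classes follow. This pool is not matched in its clusters between the ages either. The unnamed cluster led by *aqp8a.1* and *wnt5b* had 815 cells at 72 hpf and 5 at 48 hpf. One led by *cdh4* and *esr1* had 391 and 9, and one led by *esm1* and *etv4* had 8 and 1042. The part of this make-up in the pooled ratios was not tested. Fewer dividing cells and less RNA per dividing cell cannot be told apart in a pooled level, and the per-cell counts below bear on that.

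A pair of members dominated the set in every class. *hmgb2a*, a chromatin protein that bends DNA, and *tubb4b*, a beta tubulin of microtubules, together made up between 59.4% (thrombocyte-like cells) and 90.6% (the *cfd* and *emid1* cluster at 72 hpf) of all member UMIs in the groups of at least 50 cells. In non-blood cells, *tubb4b* reached 2071 CPM at 72 hpf and 2307 CPM at 48 hpf. *hmgb2a* reached 1614 CPM at 72 hpf and 3429 CPM at 48 hpf. These levels are far above those of the proliferation marker *mki67*, the next in level at both ages, with 118 CPM at 72 hpf and 184 CPM at 48 hpf, and of *ube2c*, the E2 enzyme of the APC/C, with 100.2 CPM at 72 hpf and 177 CPM at 48 hpf. The fifth place went to *top2a*, topoisomerase II, at 72 hpf (89.7 CPM) and to *lbr*, the lamin B receptor of the inner nuclear membrane, at 48 hpf (124 CPM).

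At the other end, *bub1*, a spindle checkpoint kinase, was almost undetected, with 21 UMIs in the 3735 non-blood cells at 72 hpf and 8 in the 2650 at 48 hpf. *pif1*, a DNA helicase, and *fam83d*, a spindle protein, also stayed under 10 CPM in non-blood cells at both ages. The remaining members lay between 12.8 CPM (*ect2*, a guanine nucleotide exchange factor of the cleavage furrow) and 89.7 CPM (*top2a*) at 72 hpf outside the 4 highest.

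The leading genes were much the same in all classes. *tubb4b* and *hmgb2a* were first and second, in either order, in every class shown, and *mki67* came next in all but 2 of them. In lymphatic-like cells at 72 hpf *lbr* came next (30.3 CPM), ahead of *mki67* (18.7 CPM) and *plk1*, polo-like kinase (15.9 CPM), and in valve endocardial-like cells at 48 hpf *ube2c* did (103 CPM), ahead of *mki67* (101 CPM) and *lbr* (80.8 CPM). Erythroid-like cells had *mki67* (252 CPM), *lbr* (123 CPM) and *aurkb* (87.7 CPM) in places 3 to 5, and thrombocyte-like cells had *mki67* (452 CPM), *lbr* (359 CPM) and *ube2c* (224 CPM).

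**Figure D1:**
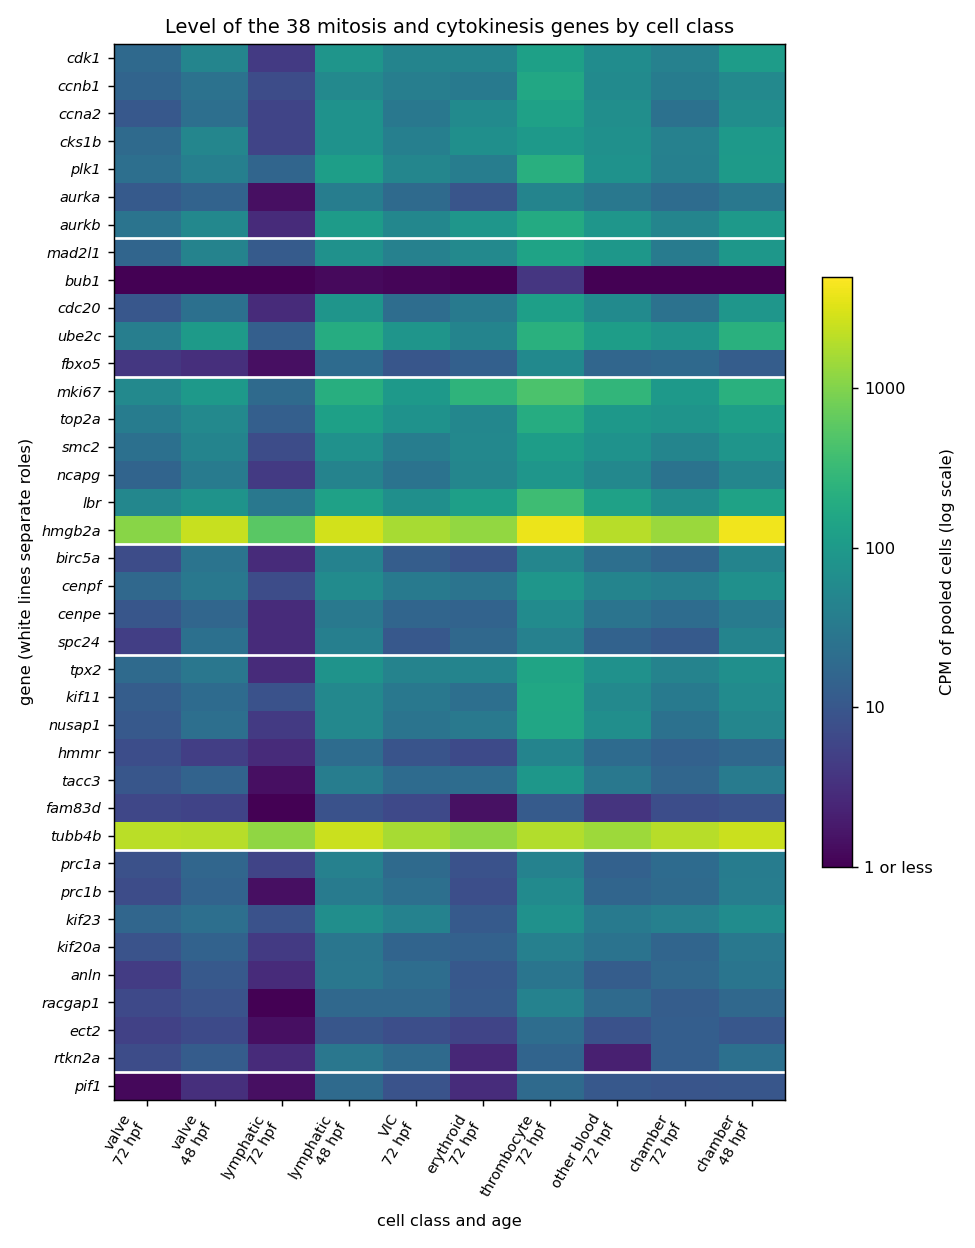
Level of each of the 38 genes (rows, grouped by role) in 10 groups of cells (columns), as CPM of the pooled cells on a log colour scale, with values of 1 CPM or less in the darkest shade. *hmgb2a* and *tubb4b* are bright throughout, the lymphatic-like column at 72 hpf is the darkest and the thrombocyte-like column is the brightest for most genes.

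The members were concentrated in few cells. At 2500 UMIs per cell, 76.8% of non-blood cells at 72 hpf and 61.1% at 48 hpf had 1 or 2 of the 38 members detected, and 0.937% and 0.226% had none. A cell was called member-rich with 5 or more members detected, and 375 of 3735 non-blood cells at 72 hpf (10.0%, interval 9.09% to 11.1%) and 579 of 2650 at 48 hpf (21.9%, 20.3% to 23.5%) passed. The line was drawn through a range: 39 cells at 72 hpf and 63 at 48 hpf had exactly 5 members, and 80 and 95 had 4. Without thinning, the shares were 14.2% at 72 hpf and 33.7% at 48 hpf.

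When the member-rich cells were picked by the other 37 genes, they held 98.1% of all *cdk1* UMIs at 72 hpf and 97.4% at 48 hpf. *cdk1* stood at 319 CPM in member-rich cells at 72 hpf, against 1.11 CPM in the other non-blood cells, a ratio of 287 (194 to 445). *top2a* differed even more, with 585 CPM against 1.34 CPM and a ratio of 437 (306 to 650). Across the 38 members the share of UMIs in member-rich cells ranged up to 99.0% at 72 hpf and 98.6% at 48 hpf.

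*hmgb2a*, *lbr* and *tubb4b* behaved otherwise. Member-rich cells held 53.7% of *hmgb2a* UMIs at 72 hpf and 60.1% at 48 hpf, 65.1% and 72.2% of *lbr* UMIs, and 30.3% and 45.6% of *tubb4b* UMIs. At 2500 UMIs, *tubb4b* was found in 96.8% of non-blood cells at 72 hpf and 97.0% at 48 hpf, and *hmgb2a* in 78.2% and 92.8%. These 3 genes were thus carried by cells with few other members as well. Without *hmgb2a*, *tubb4b*, *lbr* and *cks1b* (a CDK subunit), the member-rich share was 8.11% at 72 hpf and 16.9% at 48 hpf. Apart from *hmgb2a*, *lbr* and *tubb4b*, the lowest shares of UMIs in member-rich cells at 72 hpf belonged to *kif23* (79.1%) and *cks1b* (81.9%).

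Member-rich cells also had more UMIs per cell. Their median depth was 9988 UMIs at 72 hpf, against 5845 in the other non-blood cells, and 14844 at 48 hpf, against 9672. No class here is known to lack these genes, so a background share from free RNA could not be set from an empty class. The lowest share seen is a rough guide for the 72 hpf library alone. There *mki67* was found in 1 of 118 lymphatic-like cells (0.848%, 0.0215% to 4.63%, median depth 5399 UMIs), against 8.27% of all non-blood cells (median depth 6105 UMIs). With 1 such cell and an interval up to 4.63%, it sets no firm ceiling.

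**Figure D2:**
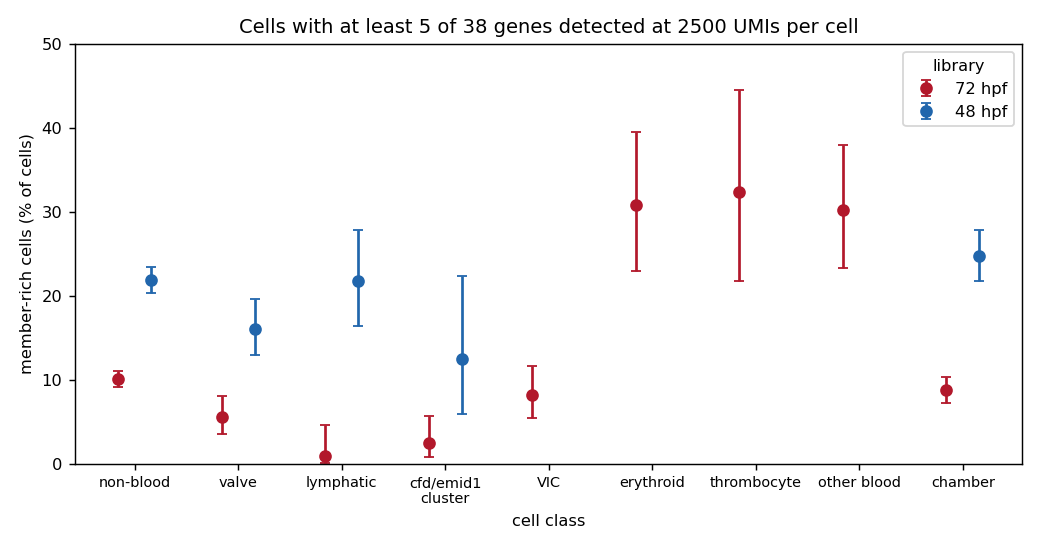
Share of cells with at least 5 of the 38 genes detected after thinning to 2500 UMIs per cell, by class and library, with exact Clopper-Pearson 95% intervals and only for groups of at least 50 cells. The 72 hpf value lies below the 48 hpf value in each class that has both, and the 3 blood groups lie between 30.3% and 32.4%.

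Between the ages, the members were lower at 72 hpf in non-blood cells. All 31 members at 20 CPM or more at either age had a ratio of 72 over 48 hpf below 1, and for 30 of them the interval lay below 1. The sizes were moderate, with a median log2 ratio of -0.51, against -0.02 over all genes at that level. Only 3 of the 31 were lower by 2-fold or more, where 3.79% of 4778 genes were, and the count was 1 under a median-of-ratios scaling and 1 at 50 CPM or more. Of the 31, 5 passed the level filter at 48 hpf alone, and over all 38 members 31 had a ratio below 1.

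*spc24*, a subunit of the NDC80 complex that grips microtubule ends, stood at 13.1 CPM at 72 hpf and 36.8 CPM at 48 hpf, a ratio of 0.356 (0.315 to 0.402). *hmgb2a* had a ratio of 0.471 (0.465 to 0.476), and *birc5a*, survivin of the chromosomal passenger complex, 0.496 (0.445 to 0.552) with 18.5 CPM at 72 hpf and 37.4 CPM at 48 hpf. Next came the APC/C pair, *cdc20*, its activator (0.537, 0.496 to 0.582), and *ube2c* (0.567, 0.541 to 0.594).

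Kinases and cyclins lay in the middle of the range. *cdk1* stood at 49.2 CPM at 72 hpf and 84.5 CPM at 48 hpf (ratio 0.582, 0.544 to 0.623), and *plk1* at 52.4 and 75.5 CPM (0.695, 0.649 to 0.743). The Aurora kinases had ratios of 0.799 (*aurka*, the centrosomal kinase, 0.719 to 0.888) and 0.696 (*aurkb*, the passenger complex kinase, 0.652 to 0.742). *mki67* had a ratio of 0.643 (0.616 to 0.672). No member of the cyclin and kinase group reached a ratio of 0.5.

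The smallest differences were those of *kif23*, a centralspindlin motor (44.0 CPM at 72 hpf and 46.9 CPM at 48 hpf, ratio 0.939, 0.868 to 1.01), *tubb4b* (0.898), *top2a* (0.885), *kif20a*, a central spindle motor (0.853), and *ccnb1*, cyclin B1 (0.845). The cytokinesis paralogs *prc1a* and *prc1b* were close to each other, with ratios of 0.701 (0.630 to 0.780) and 0.727 (0.655 to 0.807). The direction of *kif23* turned under a median-of-ratios scaling (1.03) and without the 5% of cells with most UMIs (1.02). Outside member-rich cells *kif23* stood at 10.8 CPM at 72 hpf and 5.70 CPM at 48 hpf, and inside them at 232 and 149 CPM.

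Of the 38 members, 7 lay below 20 CPM at both ages, and none of these had a ratio below 1. The clearest was *fbxo5*, the APC/C inhibitor Emi1, at 15.5 CPM at 72 hpf and 8.77 CPM at 48 hpf, a ratio of 1.76 (1.51 to 2.06). *ect2* (1.35, 1.15 to 1.59), *fam83d* (1.36, 1.12 to 1.66) and *pif1* (1.25, 1.04 to 1.51) were also higher at 72 hpf. *hmmr*, a spindle pole protein (1.01, 0.878 to 1.17), and *racgap1*, the GTPase-activating partner in centralspindlin (1.04, 0.907 to 1.19), had intervals that include 1. The seventh, *bub1*, had too few UMIs to place (3.01, 1.28 to 7.86).

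Within the member-rich cells of all non-blood clusters together, the order of the ages was the opposite for most members. Each member was read in cells picked by the other 37, and 35 of 38 had a ratio of 72 over 48 hpf above 1, with a median log2 ratio of 0.54, against 0.06 over all genes at 20 CPM or more in these cells. As in the other counts within member-rich cells, members entered at any level. Of the 38, 5 reached 2-fold, where 7.69% of all genes at 20 CPM or more did. These were *fbxo5* with 96.3 CPM at 72 hpf and 27.0 CPM at 48 hpf (3.56, 3.02 to 4.21), *fam83d* (2.92, 2.36 to 3.62), *ect2* (2.48, 2.09 to 2.95), *pif1* (2.42, 2.00 to 2.93) and the sparse *bub1* (6.29, 2.55 to 17.6). The exceptions were *spc24* (0.716, 0.630 to 0.811), *hmgb2a* (0.817, 0.805 to 0.830) and *birc5a* (0.956, 0.856 to 1.07). All 8 cytokinesis genes were above 1, with a median ratio of 1.57. So were all 7 spindle genes (1.56), all 7 cyclin and kinase genes (1.36) and all 5 checkpoint and APC/C genes (1.22). In member-rich chamber endocardial-like cells 28 of 38 were above 1, with a median log2 ratio of 0.38, while 4 of the 7 cyclin and kinase genes were below 1 (median ratio 0.978) and *cdc20* stood at 0.691 (0.590 to 0.806). In member-rich valve endocardial-like cells 29 of 38 were above 1.

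The number of members per rich cell differed too. Rich cells had a median of 13 members detected at 72 hpf and 11 at 48 hpf, and 163 of the 375 rich cells at 72 hpf had 15 or more, against 167 of 579 at 48 hpf. So fewer non-blood cells carried the programme at 72 hpf, and those that did had more of its members at equal depth. The part in this of the depth of the libraries before thinning, with medians of 9988 UMIs in rich cells at 72 hpf and 14844 at 48 hpf, was not tested.

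**Figure D3:**
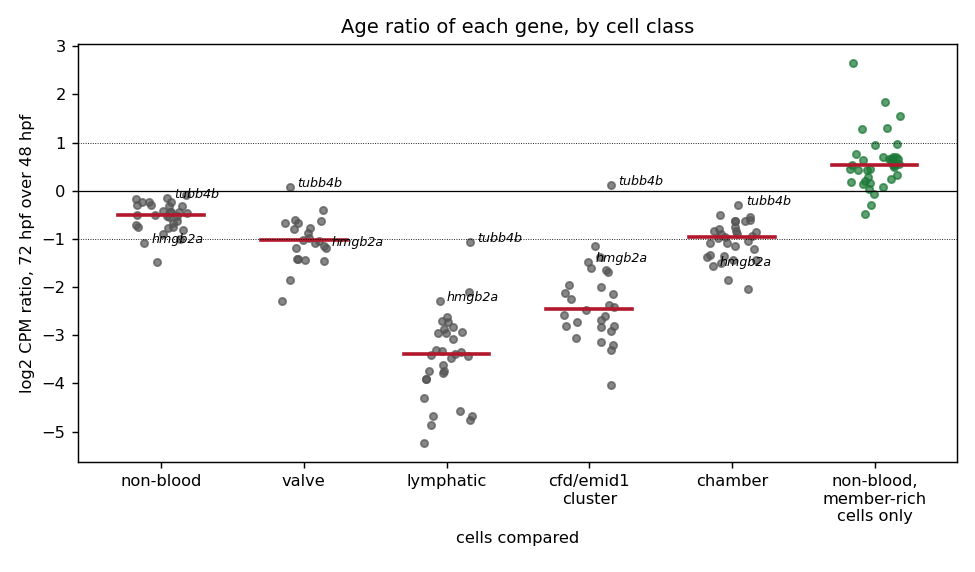
Log2 ratio of CPM at 72 hpf over 48 hpf for each gene (points) at 20 CPM or more, in all non-blood cells and 4 classes, and, in the last column, for all 38 genes within member-rich non-blood cells. Red bars are medians and dotted lines mark 2-fold. The lymphatic-like and *cfd*/*emid1* columns lie lowest, and the member-rich column lies mostly above 0.

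In the chamber endocardial-like class, the inner lining of atrium and ventricle, the same direction was larger. Unnamed clusters with high sums of chamber markers lie outside this class, and their part in the size was not tested. All 31 members at 20 CPM or more at either age were lower at 72 hpf, 14 of them by 2-fold or more, where 9.05% of 4598 genes were, and the median log2 ratio was -0.95. Of the 31, 8 passed the level filter at 48 hpf alone, and over all 38 members 35 had a ratio below 1. The 22 valve markers summed to 1810 CPM in this class at 72 hpf and 6829 CPM at 48 hpf and the 9 cardiomyocyte markers to 111 CPM and 5.36 CPM, and their part in the values was not tested. *spc24* stood at 11.3 CPM at 72 hpf and 46.8 CPM at 48 hpf (0.241, 0.192 to 0.301) and *cdc20* at 24.6 and 88.5 CPM (0.278, 0.238 to 0.323). *hmgb2a* (0.338), *birc5a* (0.351) and *ccna2*, cyclin A2 (0.367), came next, and *tubb4b* (0.809), *top2a* (0.703), *aurka* (0.685), *anln* (0.654) and *ccnb1* (0.648) differed least. The member-rich share was 8.72% at 72 hpf (7.28% to 10.3%) and 24.7% at 48 hpf (21.8% to 27.8%). Outside the class, the *aqp8a.1* and *wnt5b* cluster (815 cells at 72 hpf) had 26161 CPM of chamber markers, against 28800 CPM in the class. Its members other than *hmgb2a* and *tubb4b* summed to 2063 CPM, against 1129 CPM, and 14.85% of its cells were member-rich. For the *esm1* and *etv4* cluster (1042 cells at 48 hpf) these values were 17152 against 20871 CPM, 1809 against 2281 CPM, and 22.8%.

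In valve endocardial-like cells, which line the atrioventricular canal, 12 of 22 members were lower by 2-fold or more, where 6.14% of all genes were, with a median log2 ratio of -1.03. Of the 22, 13 passed the level filter at 48 hpf alone, and over all 38 members 16 were lower by 2-fold or more. *spc24* (4.83 CPM at 72 hpf and 23.5 CPM at 48 hpf, 0.205, 0.114 to 0.346) and *birc5a* (0.276, 0.171 to 0.426) again led, followed by *mad2l1*, a spindle checkpoint protein (0.363), *cks1b* (0.369) and *ube2c* (0.376). Among the 22, *tubb4b* was the exception, at 2085 CPM at 72 hpf and 1982 CPM at 48 hpf (1.05, 1.02 to 1.08), and *kif23* (0.752), *top2a* (0.654), *tpx2* (0.649) and *lbr* (0.631) came nearest to it. Over all 38 members 5 had a ratio above 1. Member-rich cells were 5.50% of the class at 72 hpf (3.56% to 8.08%) and 16.1% at 48 hpf (12.95% to 19.6%). Both class comparisons depend on how the endocardium is divided: with a coarser clustering the valve count was 2, and the chamber class at 48 hpf had under 50 cells.

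The lymphatic-like cells showed the widest gap between ages. The 32 members at 20 CPM or more at either age were lower at 72 hpf by 2-fold or more, where 12.6% of all genes were, and the median log2 ratio was -3.40, against 0.06 over all genes. Of the 32, 29 passed that filter at 48 hpf alone and so lay below 20 CPM at 72 hpf by construction, and without the filter all 38 were lower by 2-fold or more, the 3 at 0 included, with a median of -3.42. Of 118 cells at 72 hpf only 1 was member-rich (0.848%, 0.0215% to 4.63%), while 47 of 216 were at 48 hpf (21.8%, 16.5% to 27.9%). Lymphatic endothelium in zebrafish is marked by genes such as *lyve1b*, *flt4* and *mrc1a*, and the summed level of the 18 lymphatic markers was 12551 CPM at 72 hpf and 5289 CPM at 48 hpf.

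*mki67* had 13 UMIs in these cells at 72 hpf and 511 at 48 hpf, or 18.7 CPM and 208 CPM (ratio 0.0899, 0.0475 to 0.155). *aurkb* had 2 UMIs at 72 hpf and 266 at 48 hpf (0.0266, 0.00320 to 0.0969), *cdc20* 2.88 CPM and 83.6 CPM (0.0345, 0.00415 to 0.126), and *tpx2*, which nucleates spindle microtubules, 2.88 CPM and 78.3 CPM (0.0368, 0.00442 to 0.135). *aurka* and *tacc3*, a centrosomal microtubule regulator, each had 1.44 CPM at 72 hpf and 37.1 CPM at 48 hpf. Of the 38 members, *racgap1*, *fam83d* and *bub1* had no UMI at 72 hpf, which allows a level of up to 4.32 CPM. The genes with the least distance were *tubb4b* (0.480, 0.447 to 0.516), *lbr* (0.231), *hmgb2a* (0.203), *kif11*, the bipolar spindle motor (0.163), and *mad2l1* (0.154).

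A single cell carried most of what was left at 72 hpf. The 36 members other than *hmgb2a* and *tubb4b* had 146 UMIs in the class, 68.5% of them in the member-rich cell. Without it, their summed level was 67.2 CPM instead of 210 CPM, and 18 of the 38 members were at 0. In the lymphatic-like cluster present at both ages taken alone, 1 of 117 cells at 72 hpf and 6 of 28 at 48 hpf (21.4%, 8.30% to 41.0%) were member-rich. The ages were not matched in markers there. Lymphatic markers summed to 12611 CPM at 72 hpf and 2902 CPM at 48 hpf, and chamber markers to 15986 and 4417 CPM.

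An unnamed cluster led by *cfd* and *emid1* was also present at both ages, with 202 cells at 72 hpf and 72 at 48 hpf. Of its 28 members at 20 CPM or more, 27 were lower at 72 hpf by 2-fold or more, where 10.1% of all genes were, with a median log2 ratio of -2.45. Of the 28, 25 passed the level filter at 48 hpf alone. *mki67* stood at 15.5 CPM at 72 hpf and 143 CPM at 48 hpf (0.108, 0.0683 to 0.165). *spc24* (0.0614), *ccna2* (0.102), *cdk1* (0.113) and *cenpf*, a kinetochore protein (0.120), were also among the 5 with the lowest ratios, and *tubb4b* was the only member at a ratio above 1 (1.08, 1.02 to 1.16). *kif23* (0.452), *ccnb1* (0.384), *hmgb2a* (0.358) and *kif11* (0.327) came after it. Its member-rich share was 2.48% at 72 hpf (5 cells) and 12.5% at 48 hpf (9 cells).

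Within the 72 hpf library, where age and library are shared, valve endocardial-like cells had lower levels than chamber endocardial-like cells. Of 23 members, 15 were lower by 2-fold or more in valve endocardial-like cells, where 9.06% of all genes were, with a median log2 ratio of -1.11, and 22 had an interval below 1. Of the 23, 14 passed the level filter in chamber endocardial-like cells alone, and over all 38 members 24 were lower by 2-fold or more. *kif11* stood at 12.4 CPM in valve endocardial-like cells and 32.9 CPM in chamber endocardial-like cells (0.376, 0.264 to 0.523), followed by *cdc20* (0.418), *kif23* (0.420), *cdk1* (0.430) and *tpx2* (0.433). *tubb4b* (1.02, 0.994 to 1.05), *hmgb2a* (0.792), *lbr* (0.748), *ncapg*, a condensin subunit (0.598), and *aurkb* (0.552) differed least. At 48 hpf, 20 of 31 members, 9 of which passed the filter in chamber endocardial-like cells alone, were lower by 2-fold or more, where 9.41% of all genes were, with a median log2 ratio of -1.09 and *cdc20* at 23.5 CPM in valve endocardial-like cells and 88.5 CPM in chamber endocardial-like cells (0.266, 0.220 to 0.319). *kif11* (0.322), *ccna2* (0.339), *kif23* (0.360) and *plk1* (0.375) came next there, and *tubb4b* (0.787), *ncapg* (0.705), *lbr* (0.603), *hmgb2a* (0.594) and *birc5a* (0.571) differed least.

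The valve values at 72 hpf rest on few cells and on the clustering. There were 24 member-rich valve endocardial-like cells, and 5 cells held 41.8% of the UMIs of the 36 members, so the intervals, which treat UMIs as independent, are too narrow. With a coarser clustering, *kif11* had a ratio of 1.199 and *cdc20* of 1.52, and no member was 2-fold lower.

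VIC-like cells, mesenchymal cells that express collagens such as *col1a2* and *col5a1*, stood near the level of the chamber endocardial-like cells. None of 25 members was lower by 2-fold or more in VIC-like cells, where 9.37% of all genes were. The median log2 ratio was 0.03 against 0.15 over all genes, and the ratios ran from 0.770 (*cenpe*, the kinetochore motor, 0.539 to 1.08) to 1.26 (*ccna2*, 0.963 to 1.63). *smc2*, the core condensin subunit (0.771), *cenpf* (0.813), *tubb4b* (0.815) and *cdc20* (0.858) were the other low ones, and *plk1* (1.22), *mad2l1* (1.21), *hmgb2a* (1.18) and *prc1b* (1.18) the other high ones. Member-rich cells were 8.16% of VIC-like cells (5.49% to 11.6%) and 8.72% of chamber endocardial-like cells (7.28% to 10.3%). In the *aqp8a.1* and *wnt5b* cluster, outside the chamber endocardial-like class, they were 14.85% (12.5% to 17.5%). Members other than *hmgb2a* and *tubb4b* summed to 2063 CPM in that cluster and 1131 CPM in VIC-like cells. Among VIC-like cells, 5 held 37.5% of the UMIs of those members, so the intervals are too narrow here as well.

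Lymphatic-like cells lay far below chamber endocardial-like cells at 72 hpf and near them at 48 hpf. At 72 hpf, 22 of 23 members, 20 of which passed the level filter in chamber endocardial-like cells alone, were lower by 2-fold or more, where 11.9% of all genes were, with a median log2 ratio of -2.47 and *aurkb* at 2.88 CPM in lymphatic-like cells and 48.1 CPM in chamber endocardial-like cells (0.0599, 0.00723 to 0.218). *tpx2* (0.0645), *aurka* (0.0702), *cdk1* (0.101) and *cdc20* (0.117) followed, and *tubb4b* (0.601), *lbr* (0.444), *hmgb2a* (0.404), *plk1* (0.383) and *mad2l1* (0.328) differed least. At 48 hpf, 0 of 32 were, where 4.82% of all genes were, and the median log2 ratio was -0.05. There the lowest ratio belonged to *hmgb2a* (0.672, 0.655 to 0.690) and the highest to *rtkn2a*, a rhotekin (1.26, 0.9496 to 1.66), and 6 of the 32 intervals excluded 1. *cdk1* (0.773), *cks1b* (0.794), *mad2l1* (0.836) and *spc24* (0.845) were the other low ones, and *aurka* (1.24), *prc1a* (1.19), *hmmr* (1.17) and *ccna2* (1.17) the other high ones. The difference between the ages in this contrast has no test. With cell cycle genes kept in the clustering, which gathers cycling cells in clusters of their own, no member was 2-fold lower at 72 hpf and *tpx2* (1.25) and *lbr* (1.09) lay above 1.

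The members did not all peak in the same cells. Non-blood cells were also called replication-rich when at least 5 of 61 DNA replication genes were detected, which held for 22.3% at 72 hpf and 44.2% at 48 hpf. Of the member-rich cells, 60.3% at 72 hpf and 57.5% at 48 hpf were replication-rich too, and these made up 27.2% and 28.4% of the replication-rich cells. The level of each member in member-rich cells outside the replication-rich set was divided by its level in cells of both sets, with the cells picked by the other members.

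The highest ratios included the APC/C activator, its E2 enzyme and cyclin B1. At 72 hpf they were those of *pif1* (6.66, 4.79 to 9.44), *cdc20* with 445 CPM in member-rich cells alone and 82.7 CPM in cells of both sets (5.38, 4.59 to 6.32), *kif11* (5.36, 4.64 to 6.22), *ccnb1* (4.53, 3.93 to 5.23) and *ube2c* (4.27, 3.92 to 4.67). At 48 hpf they were those of *kif11* (3.78), *cdc20* (3.72), *pif1* (3.58), *cenpf* (3.52) and *ube2c* (3.51). The cytokinesis paralogs again ran together, *prc1a* at 2.56 and *prc1b* at 3.46 at 72 hpf, and 2.70 and 3.11 at 48 hpf.

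The lowest ratios included the APC/C inhibitor and condensin. *fbxo5* was higher in cells of both sets at both ages, with ratios of 0.627 (0.497 to 0.786) at 72 hpf and 0.397 (0.287 to 0.540) at 48 hpf. *smc2* had ratios of 0.747 (0.659 to 0.846) at 72 hpf and 0.648 (0.587 to 0.716) at 48 hpf, and its partner *ncapg* 0.893 and 0.820. *cks1b* (0.861) at 72 hpf, *ccna2* (0.847) at 48 hpf and *spc24* (0.919 at 72 hpf and 0.916 at 48 hpf) completed the list of members below 1. The intervals of *spc24* (0.729 to 1.155 at 72 hpf and 0.805 to 1.04 at 48 hpf) and of *ncapg* at 72 hpf (0.767 to 1.04) include 1.

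**Figure D4:**
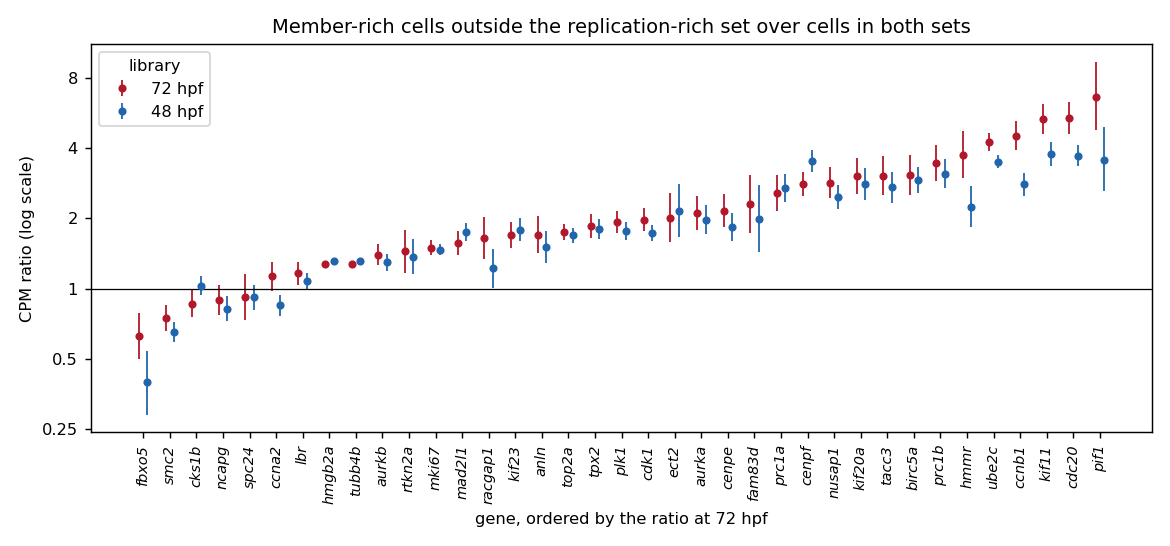
For each gene except *bub1*, the ratio of its CPM in member-rich non-blood cells outside the replication-rich set to its CPM in cells of both sets (log scale), with exact conditional 95% intervals, at 72 hpf and 48 hpf. Genes are ordered by the 72 hpf ratio, from *fbxo5* at 0.627 to *pif1* at 6.66, and *fbxo5* (0.397) and *smc2* (0.648) are also the lowest at 48 hpf.

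Blood cells could be described at 72 hpf alone. Among groups of at least 50 cells, thrombocyte-like cells had the highest summed level of members, 9612 CPM. Chamber endocardial-like cells had 4562 CPM at 72 hpf and 8927 CPM at 48 hpf. The *aqp8a.1* and *wnt5b* cluster, outside the chamber endocardial-like class that the blood cells are set against, had 6536 CPM at 72 hpf. Of 34 members, 30 were higher by 2-fold or more in thrombocyte-like cells, where 27.1% of all genes were, and the median log2 ratio was 1.66 against 0.30 over all genes. Of the 34, 11 passed the level filter in thrombocyte-like cells alone, and over all 38 members 32 were higher by 2-fold or more. Of 71 thrombocyte-like cells, 23 were member-rich (32.4%, 21.8% to 44.6%), against 120 of 1377 chamber endocardial-like cells.

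The largest ratios over chamber endocardial-like cells came from several roles. *nusap1*, a microtubule bundler, stood at 152 CPM in thrombocyte-like cells and 23.6 CPM in chamber endocardial-like cells (6.45, 4.91 to 8.39), *tacc3* at 90.7 and 16.6 CPM (5.46, 3.84 to 7.64), and *ccna2* at 129 and 24.1 CPM (5.36, 4.01 to 7.09). *lbr* (5.26, 4.44 to 6.22) and *plk1* (5.17, 4.14 to 6.42) followed, and *mki67* stood at 452 and 100.5 CPM (4.49, 3.87 to 5.20). The cytokinesis genes were nearer to the chamber level, with a median ratio of 2.04, among them *anln*, anillin of the contractile ring (1.51, 0.807 to 2.61), *ect2* (1.69, 0.818 to 3.14) and *kif23* (1.82, 1.27 to 2.55), and *cenpf* (2.22) was also among the lowest. *tubb4b* alone was below 1 (0.907, 0.849 to 0.968), and its direction turned under a finer clustering of the blood cells (1.01).

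In member-rich cells alone, the thrombocyte-like and chamber endocardial-like levels were closer. The median log2 ratio was -0.24, against 0.24 over all genes, and 3 of 38 members were lower by 2-fold or more in thrombocyte-like cells, where 23.9% of all genes were: *rtkn2a* (0.340, 0.143 to 0.695), *anln* (0.380, 0.198 to 0.671) and *fam83d* (0.412, 0.146 to 0.949). Of the 8 cytokinesis genes 7 were below 1, with a median ratio of 0.587. All 4 centromere and kinetochore genes (0.809) and *pif1* (0.555) were below 1 too. The 5 thrombocyte-like cells with most member UMIs held 43.8% of those of the 36 members. This class also had 4569 CPM of the 22 erythroid markers, with 19 of them detected, and 2394 CPM of the 24 chamber markers, with 18 detected, and their part in the values was not tested.

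Erythroid-like cells gave a split picture. At the cut of 5 members, their member-rich share was as high as that of thrombocyte-like cells, 40 of 130 (30.8%, 23.0% to 39.5%). That likeness depends on the cut: 11 erythroid-like cells had exactly 5 members and 20 had 1 fewer, against 2 and 1 thrombocyte-like cells. Cells with 5 to 9 members were 24.6% of erythroid-like and 8.45% of thrombocyte-like cells. Those with 10 to 14 were 6.15% and 11.3%, and those with 15 or more were 0% and 12.7%. The summed member level of erythroid-like cells was 3748 CPM, below the 4562 CPM of chamber endocardial-like cells. Of 24 members, 2 were higher by 2-fold or more in erythroid-like cells, where 29.5% of all genes were, and 2 were lower, where 36.7% were, with a median log2 ratio of 0.10. The erythroid-like cells were much deeper, with a median of 26474 UMIs per cell against 5519, and without thinning 72.3% of them would have been member-rich.

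A smaller share of members than of all genes passed 2-fold in either direction. Genes of the same role stood on either side of a ratio of 1. Higher were *mki67*, at 252 CPM in erythroid-like cells and 100.5 CPM in chamber endocardial-like cells (2.51, 2.28 to 2.76), *ccna2*, at 58.6 and 24.1 CPM (2.43, 1.99 to 2.96), *ncapg* (1.96), *aurkb* (1.82) and *lbr* (1.81). Lower were *kif23*, at 11.1 and 40.3 CPM (0.275, 0.191 to 0.385), *aurka*, at 9.33 and 20.5 CPM (0.454, 0.302 to 0.665), *ube2c* (0.562), *tubb4b* (0.595) and *top2a* (0.629). With members taken at any level, chromosome and chromatin genes had a median ratio of 1.46, and cytokinesis genes 0.446. Over all genes at 20 CPM or more the median log2 ratio was -0.09. The directions of *kif23* (1.07) and *aurka* (7.09) turned when cell cycle genes were kept in the clustering, and 18 members were then 2-fold higher and 0 lower. Under a median-of-ratios scaling, which shifted this contrast by 0.42 on the log2 scale, *mki67* stood at 1.88 and *ccna2* at 1.82, and 0 members were 2-fold higher and 6 lower. The share of all genes past 2-fold was not computed for either setting.

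None of the 8 cytokinesis genes was above 1. *prc1a* (0.428, 0.279 to 0.638) and *prc1b* (0.411, 0.263 to 0.620) were nearly alike, *rtkn2a* was lowest with 2.62 CPM in erythroid-like cells and 12.8 CPM in chamber endocardial-like cells (0.205, 0.0913 to 0.403), and *kif20a* (0.891) and *racgap1* (0.889) had intervals that include 1. At 2500 UMIs, *kif23* was found in 2 of 130 erythroid-like cells (1.54%, 0.187% to 5.45%) and in 6.03% of chamber endocardial-like cells, whereas *mki67* was found in 33.9% (25.8% to 42.7%) and 6.68%.

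Member-rich erythroid-like cells carried few members each. They had a median of 6 members detected and never more than 14, against a median of 13 and a maximum of 32 in chamber endocardial-like cells. In these cells 33 of 38 members were lower by 2-fold or more than in member-rich chamber endocardial-like cells, where 37% of all genes were, with a median log2 ratio of -1.88 against -0.15 over all genes. All 8 cytokinesis genes were among them, with a median ratio of 0.166. So were all 7 spindle genes (0.330), all 4 centromere and kinetochore genes (0.222) and *pif1* (0.112). *rtkn2a* (0.0342, 0.00915 to 0.0903), *fam83d* (0.0693) and *kif23* (0.105, 0.0711 to 0.150) were lowest, and *mki67* (0.707, 0.637 to 0.785) and *ccna2* (0.665) were nearest. With at least 8 members required, the erythroid-like share was 10.8%.

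Replication genes were read over all erythroid-like cells. They were detected at 5 or more in 83.9% of erythroid-like cells (76.4% to 89.7%), and 38 of the 40 member-rich cells were among these, or 34.9% of the replication-rich ones. Of 47 DNA replication genes, 35 were higher by 2-fold or more than in chamber endocardial-like cells, where 29.5% of all genes were, with a median log2 ratio of 1.43 and *gins3* (4.23), *mcm7* (4.10) and *slbp* (4.06) in front.

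Set against each other, thrombocyte-like cells were above erythroid-like cells in all 34 members at 20 CPM or more, 30 of them by 2-fold or more, where 34.8% of all genes were, with a median log2 ratio of 1.87. Of the 34, 13 passed the level filter in thrombocyte-like cells alone. *prc1b* stood at 59.8 CPM in thrombocyte-like cells and 7.87 CPM in erythroid-like cells (7.60, 4.39 to 13.2), and *kif11* (7.23, 5.23 to 10.0), *hmmr* (6.91), *kif23* (6.62) and *plk1* (5.79) came next. *cks1b* (1.38, 0.996 to 1.88), *tubb4b* (1.52), *ncapg* (1.76), *mki67* (1.79) and *aurkb* (2.07) were nearest to the erythroid-like level. DNA replication genes had a median log2 ratio of -0.39 in the same contrast, with *rrm2* (3.04) and *e2f8* (3.06) highest and *mcm6* (0.271), *msh6* (0.219) and *dscc1* (0.223) lowest.

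**Figure D5:**
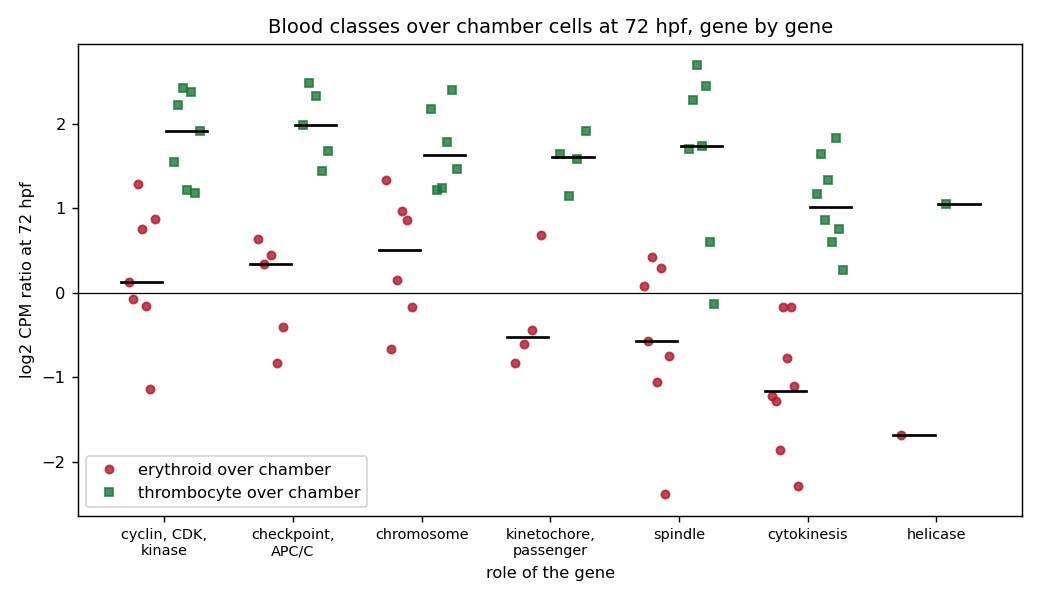
Log2 ratio of CPM in erythroid-like (circles) and thrombocyte-like cells (squares) over chamber endocardial-like cells at 72 hpf, for each of the 38 genes by role, with black bars at the median of each role. The thrombocyte-like points lie above 0 except *tubb4b*, and the erythroid-like cytokinesis points all lie below 0.

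The ratio between the Aurora kinases, which does not depend on scaling, differed in the same way. There were 301 *aurkb* UMIs and 32 *aurka* UMIs in erythroid-like cells, a ratio of 9.41 (6.52 to 14), against 2.34 (1.96 to 2.81) in chamber endocardial-like cells at 72 hpf. It was 3.92 (2.48 to 6.41) in thrombocyte-like cells, 2.95 (2.30 to 3.82) in other blood cells, and 2.53 and 2.91 in all non-blood cells at 72 and 48 hpf. The ratio of *prc1b* to *prc1a* did not separate the classes, at 0.931 (0.530 to 1.63) in erythroid-like cells, 1.35 (0.761 to 2.42) in thrombocyte-like cells and 0.971 (0.779 to 1.21) in chamber endocardial-like cells at 72 hpf.

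The other blood cells lay between. Of 26 members, 6 were higher by 2-fold or more than in chamber endocardial-like cells, where 27.7% of all genes were, with a median log2 ratio of 0.74 against 0.20 over all genes. That count is no larger a share than that of all genes. Of the 26, 3 passed the level filter in other blood cells alone. Over all 38 members 6 were higher by 2-fold or more and 2 lower. *nusap1* (2.87, 2.35 to 3.52), *ccna2* (2.82), *mki67* (2.68), *mad2l1* (2.56) and *cdc20* (2.40) had the largest ratios, and *tubb4b* (0.711), *kif23* (0.813, 0.639 to 1.03), *top2a* (1.15), *cenpf* (1.16) and *cenpe* (1.27) the smallest. No member was 2-fold higher once the 5% of cells with most UMIs were left out, and the member-rich share was then 20.8% in place of 30.3%.

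These cells fell into smaller clusters. In a cluster led by the lymphoid gene *cd7al*, 30 of 69 cells were member-rich (43.5%, 31.6% to 56.0%) and *mki67* stood at 326 CPM. A cluster led by *mpx* and *gata1b* had 18 of 70 (25.7%, 16.0% to 37.6%) and 260 CPM, and macrophage-like cells had 1 of 23 (4.35%, 0.110% to 21.9%) and 67.3 CPM. Within member-rich cells, 37 of 38 members were lower in other blood cells than in chamber endocardial-like cells, 15 of them by 2-fold or more, where 27.2% of all genes were, with a median log2 ratio of -0.95. Of the 15, 6 were cytokinesis genes, 3 checkpoint and APC/C genes and 3 centromere and kinetochore genes. The 8 cytokinesis genes had a median ratio of 0.281, and *rtkn2a* was lowest (0.0451, 0.0120 to 0.119).

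Other genes of the division cycle, from lists that do not overlap the members, gave the setting. Of 37 further mitosis genes at 20 CPM or more in non-blood cells, 1 was lower at 72 hpf by 2-fold or more, where 3.79% of all genes were, and none higher, with a median log2 ratio of -0.41. *pttg1*, securin (0.451), *spc25* (0.530) and *ncaph* (0.554) were lowest, and *mad1l1* (1.49), *ckap5* (1.37) and *ccnb3* (1.22) highest. DNA replication genes were further down, 16 of 41 lower by 2-fold or more, against the same 3.79%, and a median of -0.93, with *slbp* (0.284), *cdt1* (0.334) and *rrm2* (0.386) lowest and *hells* (1.64), *usp1* (1.08) and *pola1* (0.787) highest.

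Genes of cell cycle exit and G1 were mixed. Of 12, 1 was higher at 72 hpf by 2-fold or more, where 8.54% of all genes were: *cdkn1a*, the CDK inhibitor p21, at 131 CPM at 72 hpf and 47.5 CPM at 48 hpf (2.76, 2.59 to 2.94). *ccnd2a* (1.77) and *gadd45ba* (1.49) followed. *ccnd1*, cyclin D1 (0.457), and *ccng1* (0.466) were lowest. In lymphatic-like cells 1 of 12 such genes was higher at 72 hpf by 2-fold or more, where 16.3% of all genes were. Lower by 2-fold or more were 2, where 12.6% of all genes were. The higher one was *btg2*, an antiproliferative factor, at 1598 CPM at 72 hpf and 763 CPM at 48 hpf (2.10, 1.94 to 2.26). Among the lower ones was *ccnd1*, at 54.7 and 242 CPM (0.226, 0.158 to 0.314).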

How the data were processed

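Single-cell RNA sequencing was run on sorted cells of dissected zebrafish hearts, 1 Chromium 3′ library per age. Matrices of UMI counts were deposited, whole numbers that the authors had not scaled. The submitters' processing notes name STARsolo, Scanpy and danRer11 without versions, and cell calling and filters are not given in the sources used here. All deposited cells were used, and 0 columns belonged to a sample outside the labels. Of the 39 member identifiers, 33 matched the reference gene names, and symbols were taken from the deposited files. No gene sequence or coordinate was used here.

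The members and the gene lists were chosen with earlier results of these data known, and they were named by this rule: all members are counted, and in each comparison the 5 highest in level, the 5 largest and 5 smallest ratios, the *prc1a* and *prc1b* and the Aurora pairs and at least 1 member of each role carry values, with 3 genes at each end of the other lists. For the other lists this was done for non-blood cells, and in part for lymphatic-like and blood cells, and 1 gene that the rule names is not reported here.

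Counts scaled to 10000 per cell were log-transformed, and 2000 variable genes, without listed cell cycle genes and genes correlated with the number of members detected (0.2 or more), gave 30 principal components, 15 neighbours and Leiden clusters at resolution 0.6, seed 0 (scanpy 1.11.5, leidenalg 0.10.2, igraph 0.11.9, Python 3.11.15). Blood cells were clustered again at 0.3, a value set after the data were seen. A cluster needed 3 fixed markers among its 50 leading genes for a name, and 27 cells with blood and endothelial markers were kept apart. No doublet caller was run. The sort had excluded doublets by scatter, and values without the 5% of cells with most UMIs were computed.

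CPM carries exact Poisson intervals, ratios exact conditional intervals and shares Clopper-Pearson intervals (scipy 1.17.1). Ratios were counted at 20 CPM or more in either group, at 2-fold, with groups of at least 50 cells, while shares were also given for smaller clusters. Medians by role took in members at any level. Within member-rich cells, all 38 members were counted at any level and in groups of any size. The share of all genes beside those counts keeps the limit of 20 CPM, so the 2 are not fully alike. A median-of-ratios scaling shifted the log2 ratios over chamber endocardial-like cells by 0.42 for erythroid-like, 0.33 for other blood and 0.27 for thrombocyte-like cells, and those between ages by -0.17 in chamber endocardial-like and -0.13 in non-blood cells. A count of 0 allows up to 3 UMIs. With 1 library per age, no test was run. The scripts were tested on simulated data. Alternatives covered thinning, the number of members, the clustering, scaling and filters.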

Additional observations from a re-analysis of the deposited data

Results flagged for a closer look

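In 4 groups with under 50 cells whose shares are not given above, the share of member-rich cells was above what a count of 0 in a group of that size allows, a limit that any group with 4 or more such cells passes. In the cluster led by *lhx8a* and *cxcr4a*, found at 72 hpf alone, 18 of 45 cells were member-rich (40.0%, against a limit of 6.67%). All 8 cells at 72 hpf of the cluster led by *esm1* and *etv4* were member-rich (100%, limit 37.5%), with a median of 25.5 members detected per cell. Of the 27 cells with both blood and endothelial markers at 72 hpf, 9 were member-rich (33.3%, limit 11.1%). Of the 15 blood cells at 48 hpf, 4 were (26.7%, limit 20%). The causes were not tested.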

How the results depend on the processing

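No paired analysis was possible because there was 1 library per age and no replicate number. Of 516 single ratios, 489 stayed on their side of 2-fold. By another count, 399 stayed within their interval, 109 moved further, and 8 that were past 2-fold in the main setting changed direction. Ratios within 2-fold in the main setting that crossed 1 are not among these 8. Of 139 counts 107, and of 128 shares 83, stayed within the limits set for them. The share of all genes past 2-fold was not computed under the alternatives, so the counts of members given for them stand without it. The chamber endocardial-like class at 48 hpf had under 50 cells and gave no value under resolution 0.3, with cell cycle genes kept in, or with them left out by list only. All values of *bub1* rest on few UMIs. The lymphatic-like values at 72 hpf also rest on few UMIs outside *hmgb2a* and *tubb4b*, most of them in 1 cell. Alternatives on blood resolution, on the cells with most member UMIs and on the lymphatic-like cells were chosen after the data were seen. Except where a setting's own construction shows it, the cause was not tested.

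Shares of member-rich cells depended on the definition. Without thinning they were 14.2% at 72 hpf and 33.7% at 48 hpf in non-blood cells, 12.4% and 38.01% in chamber endocardial-like cells, 14.3% in VIC-like cells, 72.3% in erythroid-like cells and 57.4% in other blood cells, and at 48 hpf 25.9% in valve endocardial-like and 35.2% in lymphatic-like cells. With at least 3 members they were 22.3% and 38.6% in non-blood, 20.8% and 42.2% in chamber endocardial-like, 15.6% and 31.8% in valve endocardial-like, 8.47% and 43.5% in lymphatic-like, 22.2% in VIC-like, 54.6% in erythroid-like, 47.9% in thrombocyte-like and 52.5% in other blood cells. With at least 8 they were 8.22% and 16.6% in non-blood, 6.75% and 20.2% in chamber endocardial-like, 12.0% in valve endocardial-like cells at 48 hpf, 10.8% in erythroid-like and 19.8% in other blood cells. Without *hmgb2a*, *tubb4b*, *lbr* and *cks1b* they were 8.11% and 16.9% in non-blood, 6.68% and 20.4% in chamber endocardial-like, 12.4% in valve endocardial-like cells at 48 hpf, 12.3% in erythroid-like and 20.4% in other blood cells.

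The clustering moved the classes within the endocardium. At resolution 0.3 the valve endocardial-like share was 9.88% at 72 hpf and 20.9% at 48 hpf, the lymphatic-like share at 72 hpf was 0%, the valve count between ages was 2 and the valve count against chamber at 72 hpf was 0, with *kif11* at 1.199 and *cdc20* at 1.52. With cell cycle genes kept in, which gathers cycling cells in clusters of their own, the shares were 0.668% in chamber endocardial-like cells at 72 hpf, 1.54% at 72 hpf and 1.46% at 48 hpf in valve endocardial-like cells and 0% in lymphatic-like cells at 72 hpf. The valve count between ages and the valve and lymphatic counts against chamber at 72 hpf were then 0, with *kif11* at 2.26, *cdc20* at 2.56, *tpx2* at 1.25 and *lbr* at 1.09, the erythroid counts were 18 higher and 0 lower, with *kif23* at 1.07 and *aurka* at 7.09, and 27 members were higher in other blood cells. With cell cycle genes left out by list only, the chamber share at 72 hpf was 1.93%. At resolution 1.0 the chamber count between ages was 22, the lymphatic count against chamber at 48 hpf was 2 and the erythroid lower count was 5. At a blood resolution of 0.6 the erythroid counts were 5 higher and 4 lower.

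Cells, scaling and filters also moved counts. Without the 5% of cells with most UMIs, the non-blood share at 48 hpf was 20.3%, that of other blood cells 20.8%, and the count of higher members in other blood cells 0. Without the 5 cells of each class with most member UMIs, the VIC lower count was 1 and the erythroid lower count 5. With the mean of per-cell CPM, the erythroid counts were 5 higher and 1 lower, and the count in other blood cells was 15. With median-of-ratios scaling the non-blood count between ages was 1 and the erythroid counts were 0 higher and 6 lower. With no filter on low levels, the valve and lymphatic counts against chamber at 72 hpf were 24 and 37 and the erythroid lower count 9. At 50 CPM or more, which leaves fewer genes, the counts between ages were 1 in non-blood, 4 in valve endocardial-like and 20 in lymphatic-like cells, those of valve against chamber were 2 at 72 hpf and 12 at 48 hpf, that of lymphatic against chamber at 72 hpf was 5, and the erythroid lower count was 0.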
